A study of Lachancea kluyveri with 9 samples.

Results

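Gene models whose RNA was low in 1 haploid cell type of the budding yeast Lachancea kluyveri, and less than a set limit apart in the other 2 cell types, were described across the 9 libraries of the series. They were chosen by their own values. Counts were divided by median-of-ratios size factors, which put libraries of unequal depth on 1 scale, and the results are called normalised counts here. A model was taken when the mean of 1 haploid type, plus 10, lay at least 0.81 on the log2 scale below each of the other 2 means plus 10, and its 3 values lay below the other 6. The other haploid type had to be within the same limit of a/alpha cells, in either direction. Of 5189 gene models, 464 on the left arm of chromosome C were left out. The rule found 64 models, of which 37 were low in a cells only and 27 were low in alpha cells only.

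Poly(A) RNA was sequenced from 3 libraries each of a cells (strain yLB76), alpha cells (strain yLB77) and a/alpha cells (strain FDy22). The strains are labelled as wild type and prototrophic, so they carry no engineered deletion or treatment by their labels. Cultures started from single colonies and were collected from YPED medium at 30 °C in growth, between an optical density of 0.5 and 1. Each cell type was 1 strain, so strain and cell type cannot be told apart in any value below. The series asks which genes are expressed in both haploid types and not in a/alpha cells, and the models described here lie outside that pattern.

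In budding yeasts the mating-type locus sets the cell type. It encodes transcription regulators that turn on or hold down genes of 1 mating type, such as those for pheromones and their receptors, and a heterodimer made only in a/alpha cells that represses haploid-specific genes. The classes best known from Saccharomyces cerevisiae are a-specific, alpha-specific and haploid-specific genes, which are defined by where they are on. Models that are lower in 1 haploid type than in both the other haploid type and a/alpha cells form none of these classes. No names come with the identifiers of the models, so no role is given for a member and no mating-type marker could be looked up to check the labels.

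One library stood apart in depth. Replicate 1 of the a/alpha cells held 743244 counts, while the other 8 libraries held between 6379488 and 10776548. In that library 1 count equals a normalised count of 8.44, against 0.577 to 0.926 in the others, and 3 counts equal 25.3. Members had between 5 and 1314 counts there. The column names call the libraries biological replicates, 3 to a cell type. Results that rest on this library are given with and without it.

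Among the models low in alpha cells only, a plus-strand model on chromosome G (1050736 to 1052271, identifier snap_masked-SAKL0G-processed-gene-10.21) had the largest difference. In bulk cultures, fewer cells with the RNA and less RNA in each cell cannot be told apart. Its normalised counts in alpha replicates 1, 2 and 3 were 68.5, 107 and 56.2, against 273, 381 and 426 in a cells and 295, 432 and 436 in a/alpha cells. All 3 alpha values lay under all 6 others, as the rule asks, and the smaller of its 2 differences was 4.25-fold. By edgeR's fit the log2 fold changes were -2.24 ± 0.26 (SE) against a cells and -2.38 ± 0.26 against a/alpha cells. It was the 1 member of 64 that was at least 4-fold lower than both other groups.

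The next model by size, on the plus strand of chromosome F (674447 to 674935), is short, with 489 bp of coding sequence. It stood at 98.1, 193 and 237 in alpha, 602, 1008 and 1017 in a and 338, 642 and 1110 in a/alpha cells. Its a/alpha values spread widely, and without a/alpha replicate 3 it was no longer a member. Another plus-strand chromosome F model (472877 to 473929), was the most abundant of the 27, at 1778, 1217 and 1107 in alpha cells. It was at 5840, 3463 and 3298 in a cells and 3959, 4411 and 5170 in a/alpha cells. In edgeR's fit the changes on the log2 scale were -1.64 ± 0.25 and -1.73 ± 0.25 (SE) against a and a/alpha cells.

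Other members here had close values in a and a/alpha cells on chromosomes G and H, and less close values on chromosome E. All values listed here and below are normalised counts of replicates 1, 2 and 3 in that order. The chromosome G model (302684 to 303661) on the plus strand had 521, 473 and 516 in alpha, 1252, 1039 and 1189 in a and 1131, 1142 and 1160 among a/alpha libraries. In this model the 6 higher values lie near each other and the 3 alpha values form a separate group. On the minus strand of chromosome E, the model (439919 to 442111) had 599, 744 and 539 in alpha, 1532, 1669 and 1450 in a and 1638, 1863 and 2326 among a/alpha libraries. A chromosome H model (1452586 to 1453887) on the minus strand had few counts, with normalised values of 9.26, 15.8 and 18.7 in alpha, 46.2, 55.8 and 53.2 in a and 42.2, 60.6 and 59.96 among a/alpha libraries. Its a/alpha replicate 1 value rests on 5 counts. With a constant of 1 in place of 10, its smaller log2 difference went from -1.33 to -1.76.

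A minus-strand chromosome D model (958583 to 959458) had 199.98, 179 and 161 in alpha, 622, 346 and 376 in a and 515, 428 and 487 among a/alpha libraries, with a replicate 1 above the other a libraries. Its neighbour in rank on the plus strand of chromosome G (1345342 to 1346532), had 424, 516 and 581 in alpha, 1166, 1133 and 1217 in a and 1486, 914 and 1065 among a/alpha libraries. In both models the 3 alpha values lay closer to each other than to any other value, and neither was lost when any 1 library was left out. The plus-strand chromosome H model (245357 to 246604) had 649, 759 and 914 in alpha, 1539, 1824 and 1807 in a and 1224, 1944 and 1917 among a/alpha libraries. Its a/alpha replicate 1 lay under the other a/alpha replicates and still above the 3 alpha values.

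Members at ranks 9, 11 and 12 spread more within groups. On the minus strand of chromosome D (883108 to 885222), the values were 204, 194 and 131 in alpha, 554, 358 and 303 in a and 287, 503 and 442 among a/alpha libraries. For a plus-strand chromosome F model (981486 to 983450) they were 232, 249 and 149 in alpha, 534, 507 and 363 in a and 582, 379 and 815 among a/alpha libraries, and its a/alpha values span more than the gap to the alpha values. For a minus-strand chromosome H model (1252945 to 1254078) they were 116, 75.3 and 87.4 in alpha, 261, 228 and 183 in a and 169, 178 and 287 among a/alpha libraries, and a pair of its a/alpha values lies closer to the alpha values than to the third. All 3 of these models stayed in the set without any 1 library.

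Abundant members of lower rank were found on chromosomes E and G. The chromosome E one (726084 to 729116) had 1272, 697 and 814 in alpha, 2642, 1765 and 1431 in a and 2195, 1862 and 1664 among a/alpha libraries. The chromosome G one (290768 to 291874) had 1417, 1110 and 1286 in alpha, 2344, 2038 and 2690 in a and 2811, 2924 and 2703 among a/alpha libraries. In the chromosome E model the highest alpha value and the lowest a value lie close together, while the chromosome G values separate more.

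Over the 27 models the smaller of the 2 differences ran from 1.76-fold to 4.25-fold with a median of 2.14-fold, and 15 models reached 2-fold. The mean in a cells lay above that in a/alpha cells for 12 models and below it for 15. The log2 difference, a minus a/alpha cells, ran from -0.54 to 0.45 with a median of -0.02. Together the 27 models took 0.157%, 0.125% and 0.112% of the counts of the alpha libraries. In a libraries they took 0.476%, 0.387% and 0.367%, and in a/alpha libraries 0.337%, 0.362% and 0.413%. The share is a description, since the models were picked for being low in alpha cells.

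**Figure D1:**
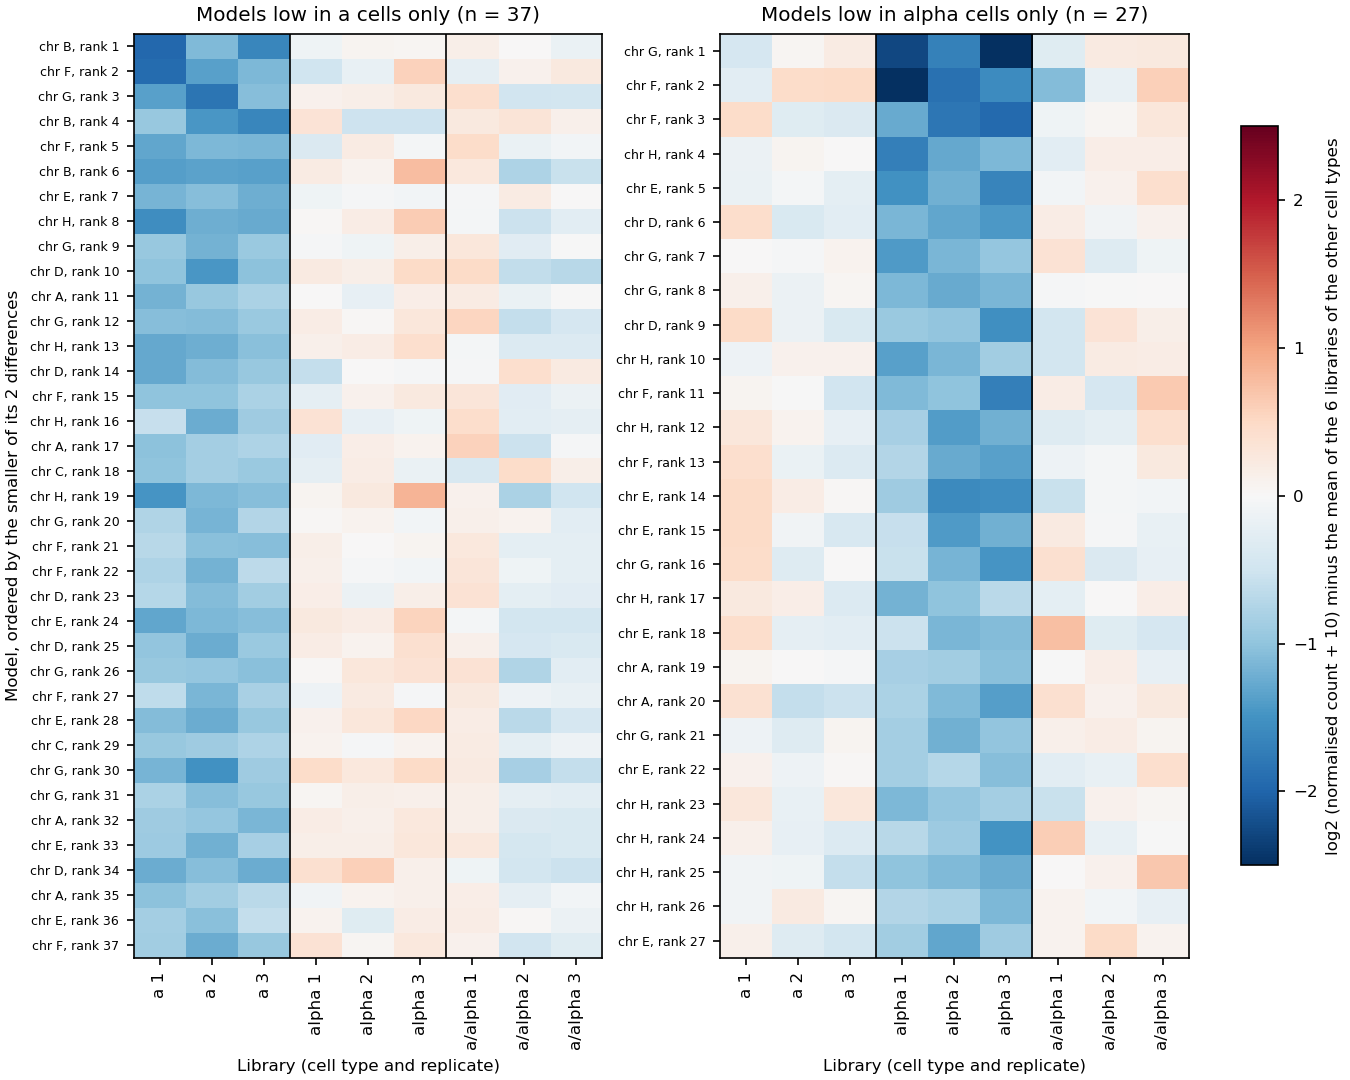
Each row is 1 member and each column 1 library, and the colour gives the log2 of the normalised count plus 10 minus its mean over the 6 libraries of the other cell types. In the left panel (37 models low in a cells only) the a/alpha replicate 1 column is redder than a/alpha replicates 2 and 3 in most rows, and in the right panel (27 models low in alpha cells only) it is not.

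In the models low in a cells only, the smaller of the 2 differences had a median of 1.83-fold, below that of the models low in alpha cells only. Against the other haploid type alone the medians were -1.14 on the log2 scale in the 37 and -1.12 in the 27. In the 37 the mean in alpha cells lay above that in a/alpha cells for 26 models and below it for 11. The log2 difference, alpha minus a/alpha cells, ran from -0.40 to 0.77 with a median of 0.10.

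A minus-strand model of 2 coding parts on chromosome B (37558 to 38220, identifier maker-SAKL0B-snap-gene-0.77) came first. It was at 9.89, 25.9 and 15.01 in a replicates 1, 2 and 3, at 62.03, 70.9 and 69.5 in alpha cells and at 75.97, 68.1 and 58.6 in a/alpha cells. Its smaller difference was 2.88-fold, the largest of the 37, and its level was low, so that a/alpha replicate 1 holds 9 counts of it. By edgeR's fit the log2 fold changes were -1.98 ± 0.29 (SE) against alpha cells and -1.93 ± 0.30 against a/alpha cells.

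The next was a plus-strand model of 2 parts and 213 bp of coding length on chromosome F (1109284 to 1109683). It had 327, 487 and 579.7 in a, 892, 1107 and 1909 in alpha and 1080, 1367 and 1496 among a/alpha libraries. The 3 a values lay under the 6 others, with the alpha values spread more than the a/alpha values. Its log2 fold changes by edgeR's fit were -1.46 ± 0.27 and -1.50 ± 0.28 (SE) against alpha and a/alpha cells. The plus-strand chromosome E model (1006095 to 1007159) had closely spaced values, with 746, 799 and 713 in a, 1554, 1646 and 1587 in alpha and 1646, 1938 and 1696 among a/alpha libraries. A plus-strand chromosome B model of 2 parts (131828 to 132898), had 94.8, 63.02 and 55.03 in a, 246, 129.6 and 130.2 in alpha and 228, 241 and 209.5 among a/alpha libraries. Of these, the chromosome B model left the set without alpha replicate 1, where its alpha level was highest, and the others stayed without any 1 library.

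Further members with the same order were 4 models that stayed in the set without any 1 library. The minus-strand chromosome G model (1688211 to 1689275) had 59.4, 40.4 and 75.04 in a, 182, 187 and 201 in alpha and 228, 117 and 119.9 among a/alpha libraries. The plus-strand chromosome H model (1621183 to 1621998) had 436, 552 and 536 in a, 1320, 1486 and 2027 in alpha and 1249, 892 and 1076 among a/alpha libraries. In both, alpha cells stood above a/alpha replicates 2 and 3. The plus-strand chromosome G model (985074 to 986516) had 228, 192 and 231 in a, 439.8, 412 and 496 in alpha and 549, 364 and 445 among a/alpha libraries. The minus-strand chromosome A model (569974 to 571320) had 321, 379.8 and 423 in a, 747, 642 and 834 in alpha and 861, 658 and 733 among a/alpha libraries. In these last models the alpha and a/alpha values overlapped.

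The most abundant of the 37 was a minus-strand model on chromosome C (1228187 to 1229332), outside the left arm, at 7367, 8112 and 7761 in a cells. It was at 12644, 16794 and 13198 in alpha and 11092, 20145 and 16180 among a/alpha libraries, where replicate 1 was the lowest. A minus-strand chromosome D model (115957 to 116937) had 2490, 2858 and 3127 in a, 4014, 6055 and 5936 in alpha and 5926, 8045 and 7040 among a/alpha libraries. The smaller difference was 1.83-fold in the chromosome C model and 1.89-fold in the chromosome D model, not far past the limit. The third by level, on the plus strand of chromosome F (503813 to 505591), had 1505, 1493 and 1743 in a, 2587, 3269 and 3561 in alpha and 3739, 2483 and 2737 among a/alpha libraries, and it left the set without a/alpha replicate 1.

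The set low in a cells only depended on the shallow a/alpha replicate 1. That library was the highest of the 3 a/alpha libraries in 32 of the 37 models, against 38.7% of all 4698 models with a count outside the left arm of chromosome C. Its log2 value lay above the mean of a/alpha replicates 2 and 3 by a median of 0.49 over the 37 models, against -0.03 over all models. The rule took the mean of the 3 a/alpha values, so a high value in 1 library helps a model to pass. The 5 exceptions were the chromosome F model at 1109284 and those at 131828 on B, 1006095 on E, 115957 on D and 1228187 on C.

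Without a/alpha replicate 1 the rule gave 16 models low in a cells only, of which 13 were among the 37, and the other 24 of the 37 no longer met the rule. The 13 comprise the 5 exceptions, the models leading on chromosomes B, G, H, G and A that stayed without any 1 library (starts 37558, 1688211, 1621183, 985074 and 569974), a model next to the high chromosome F model described below, and models on chromosomes H (1304903 to 1306042) and G (448553 to 449734). Over these 13, a/alpha cells stood above a cells by a median of 2.32-fold with all libraries and 2.13-fold without a/alpha replicate 1. Over the other 24 the medians were 1.79-fold and 1.57-fold, with a range of 1.38 to 1.70 without that library. The rule itself split the 13 from the 24, so this gap was fixed by the choice to leave out that library. All 37 models kept a higher a/alpha mean than a mean without it. That says little, since the rule chose models whose a values lay below every a/alpha value. The comparison with alpha cells takes in a/alpha replicate 1 only through the size factors. There the 24 were lower by a median of 2.26-fold and the 13 by 2.20-fold.

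Members of the 24 show this in their values. The chromosome B model (871361 to 872254) had 351, 363 and 353 in a, 1070, 987 and 1579 in alpha and 1114, 542 and 625 among a/alpha libraries. A chromosome D one (579222 to 580415) had 235, 170.5 and 233 in a, 564, 539 and 676 in alpha and 675, 311 and 293 among a/alpha libraries, and a chromosome G one (1054059 to 1056044) had 213, 208 and 234 in a, 517, 462 and 555 in alpha and 667, 296 and 337 among a/alpha libraries. In all 3 models a/alpha replicate 1 lay within or above the range of the alpha values and a/alpha replicates 2 and 3 lay between a and alpha cells. With the shallow library set aside, their a/alpha values were intermediate and not alike with those of alpha cells. The part of its depth in this was not tested.

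For the 27 models low in alpha cells only the same library changed the set less. It was the highest a/alpha library in 8 of them. Without it the rule gave 31 models, 24 of them among the 27. The 3 that left were on chromosomes G (587439 to 589058), E (505829 to 508090) and H (936812 to 938176). The median difference between alpha and a/alpha cells was -1.17 on the log2 scale with all libraries and -1.26 without a/alpha replicate 1.

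**Figure D2:**
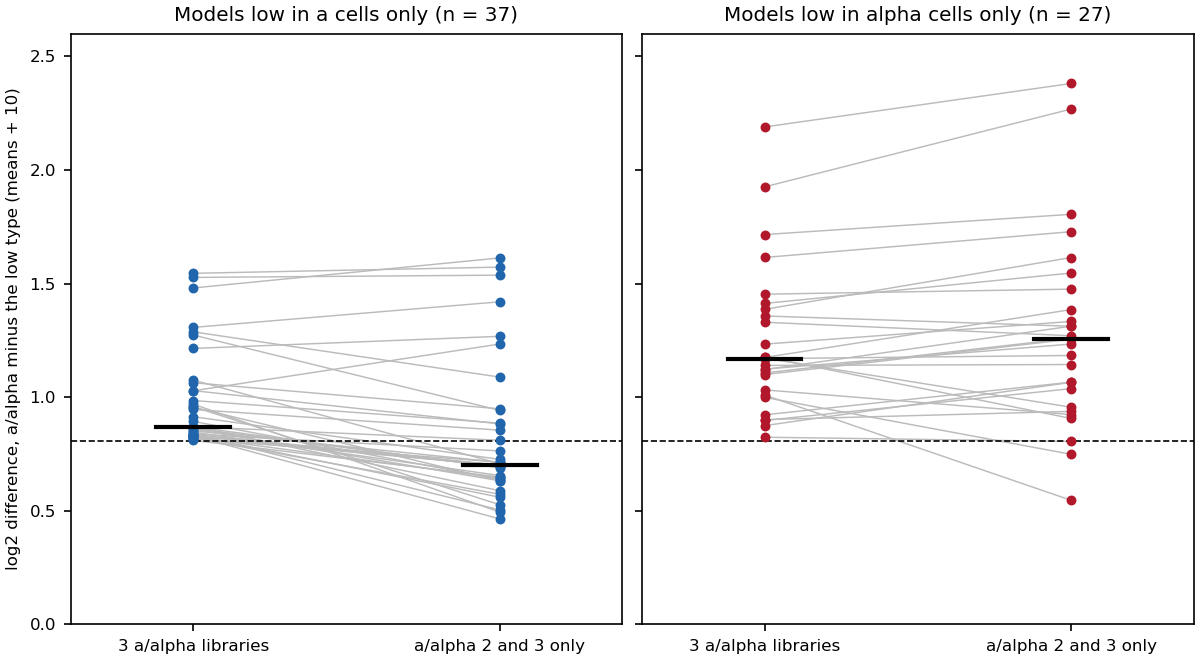
Each point is 1 model and gives the log2 difference between a/alpha cells and the low cell type (means plus 10), on the left with all 3 a/alpha libraries and on the right with a/alpha replicates 2 and 3 only. Black bars are medians and the dashed line is the limit of 0.81: 24 of 37 models low in a cells only drop under it, and 3 of 27 models low in alpha cells only.

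Libraries within the other groups were ordered in different ways in the 2 sets. Among the 27 models low in alpha cells only, a replicate 1 was the highest a library in 19 and alpha replicate 1 the highest alpha library in 17. Over all 4698 models these shares were 35.8% and 33.3%. Among the 37 models low in a cells only, the same libraries were the highest of their group in 10 and 6 models, and a replicate 3 and alpha replicate 3 in 20 and 21, where the shares over all models were 34.1% and 41.8%. Leaving out alpha replicate 1, the alpha library with the highest values in most of the 27, raised the number of models low in alpha cells only from 27 to 54. Leaving out a replicate 3 raised the number low in a cells only from 37 to 58. Both rises are partly built in, since leaving out a high library of the low type makes the rule easier to meet. The models are not independent of each other, and the part of culture or library in these orders was not tested.

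Models just inside and outside the limit differed little. The last members low in a cells only were on chromosomes E and F. The chromosome E one (978763 to 979470) had 211, 183 and 252 in a, 408, 309.9 and 439.5 in alpha and 439, 392 and 347 among a/alpha libraries. The chromosome F one (567801 to 568811) had 63.5, 46.9 and 60.03 in a, 163, 129.6 and 151 in alpha and 135, 86.6 and 99.5 among a/alpha libraries. In the chromosome F model a/alpha replicate 1 was the highest of its group, and in the chromosome E model too.

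Just outside lay a chromosome B model (563151 to 566321), with 761, 617 and 662 in a, 1344, 1239 and 1248 in alpha and 1705, 866 and 1018 among a/alpha libraries. A chromosome H model (972836 to 974926) was next, with 603, 589.8 and 607 in a, 1230, 1227 and 1402 in alpha and 1511, 797 and 857 among a/alpha libraries. They too had their highest a/alpha value in replicate 1.

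For alpha cells the last members lay on chromosomes H and E. The chromosome H model starting at 936812 had 19.4, 18.4 and 12.5 in alpha, 36.3, 47.7 and 40.6 in a and 42.2, 36.9 and 32.9 among a/alpha libraries, and the chromosome E model (1121870 to 1122457) had 64.8, 45.5 and 64.2 in alpha, 140.2, 99.4 and 90.04 in a and 135, 181 and 135 among a/alpha libraries. Just outside, a chromosome A model (725533 to 727899) had 57.4, 34.1 and 38.3 in alpha, 109.7, 72.7 and 66.9 in a and 127, 60.03 and 83.02 among a/alpha libraries. The next, on chromosome H (233859 to 236309), had 119, 98.9 and 98.1 in alpha, 373, 325 and 325 in a and 135, 211 and 226 among a/alpha libraries. The 3 alpha values lay under the 6 others in all 4 of these models, since that was a condition for choosing them.

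The limit left most of the models whose values separate outside the sets. Over the 4698 models, the 3 a values lay below all 6 others in 8.88%, and the 3 alpha values in 4.92%. With quasi-likelihood tests in edgeR, adjusted by the Benjamini-Hochberg method over 5042 models, 37 of the 37 models were called lower in a than in alpha cells, where 9.9% of all models were. Lower in a than in a/alpha cells were 34 of the 37, against 5.61% of all models, and the same 34 were called in both comparisons, against 2.48%. Without a/alpha replicate 1 the number called in both was 26, without a replicate 2 it was 21. Of the 27 models low in alpha cells only, 27 were called lower than in a cells, against 8.05%, and 25 lower than in a/alpha cells, against 3.71%. The 25 were called in both comparisons, against 1.39% of all models, and 16 without alpha replicate 2 or alpha replicate 3. The rule used these comparisons, so the counts describe the members and nothing is read from them.

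The 5 members that missed the test did so against a/alpha cells, and they were named after their values were seen. They were the chromosome D model at 579222, one on chromosome H (1318833 to 1319387) and one on chromosome G (797837 to 799309) among those low in a cells only. Among those low in alpha cells only they were the models at 587439 on chromosome G and 505829 on chromosome E. None of these 5 was a member without a/alpha replicate 1. With the replicate number as a block, all 37 and all 27 were called in both comparisons, these 5 included, and the calls over all models went from 125 and 70 to 256 and 270. The block gives a/alpha libraries the same replicate effects as the haploid ones. Their deviations correlated with same-numbered a and alpha libraries only from -0.04 to 0.20, so little is read from these calls. DESeq2 without the block called all 37 and all 27 as well. Against a/alpha cells the median SE of edgeR's log2 fold changes was 0.20 over the 37 and 0.25 over the 27 models.

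In the authors' deposited table for a against a/alpha cells, 33 of the 37 models had an adjusted p under 0.05 and a lower level in a cells, against 6.39% of its models. In the authors' deposited table for alpha against a/alpha cells this held for 26 of the 27 models, against 4.61%. All 37 and all 27 had a log2 fold change below 0 in the authors' deposited tables. For the chromosome G model at 1050736 the authors' deposited table gave -2.36 with an error of 0.27, and for the chromosome B model at 37558 it gave -1.97 with an error of 0.51. These tables rest on the same libraries, among others, and are not separate evidence.

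Set beside the models high in 1 haploid type, the largest differences among the low models were small. The same rule turned over, with the 3 values above the other 6, gave 59 models high in a cells only and 47 high in alpha cells only. The largest of the smaller differences was 86.4-fold among the 59 and 75.8-fold among the 47, against 2.88-fold and 4.25-fold among the models low in a and low in alpha cells. The medians lay closer, at 2.11-fold and 1.91-fold for the high models and 1.83-fold and 2.14-fold for the low ones. At least 2-fold differences were seen in 35, 18, 9 and 15 models of these sets, in the same order. At least 4-fold differences were seen in 7, 2, 0 and 1 models. The difference between the sets was not tested, since all 4 were chosen by the values compared. In the models high in alpha cells only, a/alpha replicate 1 was again above the other a/alpha replicates, in 38 of 47, against 38.7% of all 4698 models. In those high in a cells only it was above them in 16 of 59 and below them in 34. The share of all models with it below was not computed. These sets were chosen by values that include this library, so the counts are a description.

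**Figure D3:**
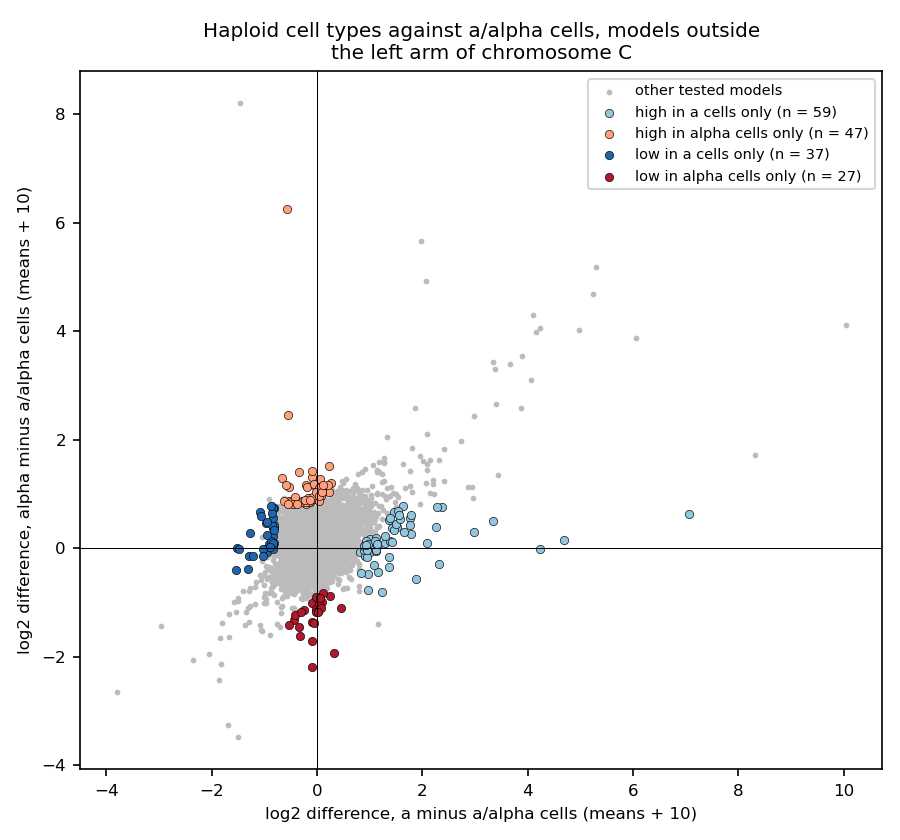
Each point is 1 tested gene model outside the left arm of chromosome C, with the log2 difference between a and a/alpha cells on the horizontal axis and between alpha and a/alpha cells on the vertical axis (group means plus 10). The 37 models low in a cells only lie left of centre and the 27 low in alpha cells only below it, near the edge of the cloud, while models high in 1 type reach much farther.

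Length, position and level were not used by the rule. Median coding length was 1182 bp in models low in a cells only and 1365 bp in those low in alpha cells only, against 1263 bp over all 4698 models. Shorter than 400 bp were 1 of the 37 and 0 of the 27 models, against 8.07% of all. Several coding parts were annotated in 4 of the 37 and 0 of the 27, against 13.6%. No member overlapped another model, which 2.11% of all models did. The mean normalised count over 9 libraries per kb of coding length had a median of 365 in the 37, 211 in the 27 and 217 over all models. The models low in a cells only had the higher median level per length of the 2 sets. A filter on counts removed none of the 64, which the constant in the rule makes likely.

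Gaps to the next model were wider around the models low in alpha cells only. The median distance to the model upstream was 654 bp in the 27 and 393 bp in the 37, against 472 bp over all models. Upstream gaps over 1000 bp were found in 9 of the 27 and 8 of the 37 models, against 21.1%. The median distance downstream was 694 bp in the 27 and 347 bp in the 37, against 286 bp. Distances run between the outer ends of annotated coding sequence, and the gaps hold both untranslated and regulatory sequence. No test was run on these features.

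Members were spread over the chromosomes. Those low in a cells only lay on all 8, with 7 each on F and G, 5 each on D and E, 4 each on A and H, 3 on B and 2 on C. Those low in alpha cells only lay on 6, with 8 on H, 6 on E, 5 on G, 4 on F and 2 each on A and D. Chromosome H held 29.6% of the 27 and 10.8% of the 37, against 21.5% of all models. Within 50 kb of the outermost model of a chromosome lay 4 of the 37 and 2 of the 27, against 5.75% of all. No 2 members were direct neighbours.

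The leading model low in alpha cells lay directly behind the leading model high in alpha cells. The chromosome G model from 1048341 to 1050398, on the plus strand, was at 19227, 15298 and 13671 in alpha cells, 162, 116 and 123 in a and 160.4, 315 and 131 in a/alpha cells. The model at 1050736 starts after a gap of 337 bp from its end, on the same strand. The first model was high in the same 3 libraries in which the second was low. The pair was picked out after its values were seen.

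A pair of the same form was found on chromosome F. There the plus-strand model from 524553 to 528101 was at 807, 1231 and 1047 in a, 28.7, 44.6 and 58.8 in alpha and 50.6, 36.9 and 47.4 among a/alpha libraries. The next model (528556 to 529731), 454 bp behind it on the same strand, is low in a cells only, with 106, 120.4 and 118 in a, 212, 317 and 263 in alpha and 379.9, 244 and 259.6 among a/alpha libraries. In both pairs the downstream model was lowest in the cell type in which the upstream model was highest. The chromosome F member stayed in the set without any 1 library.

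These were 2 of 50 same-strand pairs. Among models high in 1 haploid type only, 32 high in a cells and 18 high in alpha cells had a same-strand model next downstream, and the downstream model was a low member of the same type in 1 and 1 of them. Of those 50 upstream models, 3 were at least 16-fold higher in 1 type, a limit set after the pairs were seen. The third was the minus-strand chromosome H model from 2039397 to 2040980, at 5253, 4076 and 5094 in a, 46.3, 41.1 and 49.9 in alpha and 25.3, 27.1 and 25.7 among a/alpha libraries. Its downstream neighbour, from 2037554 to 2038816 at a distance of 580 bp, was at 1622, 1117 and 1595 in a, 2820, 2223 and 2478 in alpha and 2608, 1773 and 1697 among a/alpha libraries. It was lower in a than in the other 2 cell types in all libraries, but its log2 differences of -0.79 and -0.49 lie under the limit.

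Over all same-strand pairs the order was mixed, and no test of it was run. The downstream mean lay below both other groups in 12 of 32 pairs behind models high in a cells, and 32.9% of all models had their lowest mean in a cells. It did so in 6 of 18 pairs behind models high in alpha cells, against 31.8% of all models. The pair behind the next highest model on chromosome E, from 771138 to 772829, differed by -0.15 and -0.21 on the log2 scale. Members with any direct neighbour high in 1 type, on either strand, were 2 of the 37 and 3 of the 27, against 4.45% of all models.

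**Figure D4:**
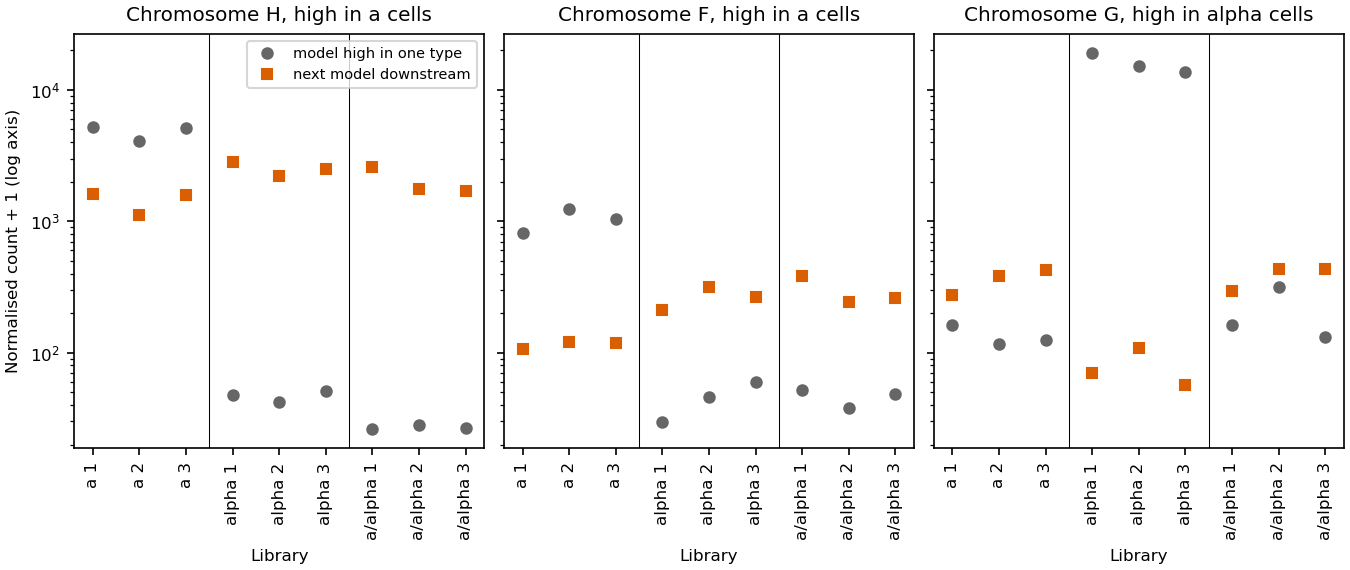
Normalised counts plus 1 (log axis) in each library for the 3 models at least 16-fold higher in 1 haploid type that have a same-strand model next downstream (grey circles), and for that next model (orange squares). The squares are lowest in the 3 libraries in which the circles are highest.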

How the data were processed

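Read counts per gene model were deposited by the authors for 9 libraries and, per the file headers, come from featureCounts 2.0.1 over coding sequence with strand setting 1. The alignments' paths in the header name fastp and STAR, of versions not given in the sources used here, as is the genome build. The header lists 14 alignments, and 5 were not used here. The authors' deposited comparison tables, whose columns are those of DESeq2 as named in the submitters' processing notes, hold a mean signal per model, log2 fold changes with errors, a score (fold change over error), p-values and adjusted p-values. The mean signal and the score were not used. Per the labels, reads were single-end and libraries were directional.

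Library totals ran from 743244 counts in a/alpha replicate 1 to 10776548, so that library is the least precise. Counts were divided by median-of-ratios size factors. The rule, with a constant of 10, was applied in Python 3.11.15 to the 4698 models outside the left arm of chromosome C that had a count. edgeR 4.0.16 in R 4.3.3 tested all 9 libraries together with TMM factors on the 5042 models that passed filterByExpr, with group as the only term and Benjamini-Hochberg adjustment at 0.05. The 147 models not kept held 0.0051% of counts. edgeR's test gives no SE, so the SE printed with its log2 fold changes is their absolute value over the square root of the F statistic. DESeq2 1.42.0 was an alternative. The edgeR step was tried on simulated counts with some models lowered in a cells, and its outcome is not used here.

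The members, lists and tests were chosen with earlier results of these data known. Models named in the text were, for each set, the 12 with the largest smaller difference, the 3 most abundant in the 6 other libraries, and the 2 nearest inside and outside the limit. Others named are said to be exceptions, losses or neighbours, and were picked after their values were seen. Same-numbered a and alpha libraries deviated together from their group means, with correlations of 0.78, 0.24 and 0.59 across models. The numbers did not pair either type with a/alpha cells, where correlations ran from -0.04 to 0.20. Nothing in the labels says what a shared number marks. The alternatives were other size factors, constants, limits and filters, group medians, each library left out, a replicate block and pooled a/alpha libraries.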

Additional observations from a re-analysis of the deposited data

Results flagged for a closer look

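In 6 members the 3 cell types separated fully, with the low type under all a/alpha libraries and the other haploid type above all of them. In models low in a cells only, alpha cells were above a/alpha cells on the log2 scale of means plus 10 by 0.58 on chromosome H (start 1621183), 0.49 on chromosome H (start 1304903), 0.65 on chromosome E (start 1052694), 0.74 on chromosome G (start 797837) and 0.74 on chromosome D (start 328883). In a model low in alpha cells only, on chromosome E (start 563945), a cells were above a/alpha cells by 0.45. Without a/alpha replicate 1, the models starting at 1052694, 797837 and 328883 were no longer members, while the other 3 were. The one at 797837 also missed edgeR's test against a/alpha cells. The opposite order, with the other haploid type between the low type and a/alpha cells in all libraries, was found in 1 model low in a cells only (chromosome E, start 1006095) and 2 models low in alpha cells only (chromosome G, start 290768, and chromosome H, start 2217701). In the chromosome E model the order rests on alpha replicate 2 (1645.65) and the shallow a/alpha replicate 1 (1646.02). They lie closer than 1 count of that shallow library. The margin was also narrow in the chromosome G model at 290768, between a replicate 3 (2690.05) and a/alpha replicate 3 (2702.64). In the separated model at 797837, alpha replicate 2 (339.6) lay near the shallow a/alpha replicate 1 (329.2). No test of the difference between the other haploid type and a/alpha cells is given here, since the rule limited that difference.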

How the results depend on the processing

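The number of models low in a cells only, 37, became 17 with upper-quartile factors, 24 with a constant of 30, 110 and 9 with fold limits of 1.5 and 2, and 20 with group medians. In alternatives chosen after seeing the data, it was 13 without a/alpha replicate 1 with the size factors of 9 libraries kept, and 14 with the a/alpha libraries pooled. Leaving out 1 library gave 16 (without a/alpha replicate 1) to 67 (without a/alpha replicate 2), and 58 without a replicate 3. The number low in alpha cells only, 27, became 58 and 15 with fold limits of 1.5 and 2, and 21 (without a replicate 1) to 54 (without alpha replicate 1) with 1 library left out. Of the 37, edgeR called 34 in both comparisons, and 21 (without a replicate 2) to 35 with 1 library left out. Of the 27 it called 25, and 16 (without alpha replicate 2 or 3) to 27. With the replicate block 37 and 27 were called, and over all models 256 and 270 in place of 125 and 70. The replicate numbers did not pair a/alpha libraries with the others. DESeq2 called 37 and 27, and 206 and 98 over all models. Upper-quartile factors moved the median log2 difference of all models between a and alpha cells from 0.03 to 0.15. In all 9 runs that left out 1 library, 10 of the 37 and 14 of the 27 stayed. Values of named models were followed under TMM factors, a constant of 1 and each library left out. Of these 363 values, 361 moved by less than the largest of the model's 3 within-group standard deviations on the log2 scale. That 0 reversed says little, since the rule chose models whose low values lay under all others. The causes were not tested. The depth of a/alpha replicate 1 limits what can be said of a/alpha levels in models with few counts there.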
